A study of Mus musculus with 16 samples.

Results

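Drd2, Adora2a, Ppp1r1b, Penk, Tac1, Rgs9, Pde10a and Scn4b are genes that mark medium spiny neurons, the projection neurons of the striatum. They were chosen by name, as known markers of these dopamine-receptive cells, and are 8 of the 39179 genes in every count table. They and the gene lists used below were chosen with earlier results of these data known. Their shares set against those of all genes are therefore descriptions. All 8 passed the filter on low counts. They were followed here in RNA from hippocampal and cortical neurons, so their levels describe these genes in samples labelled as other brain regions. Which cells their RNA came from was not tested.

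Medium spiny neurons receive cortical and dopamine input and send inhibitory output along a direct and an indirect pathway. Cells of the indirect pathway carry the dopamine receptor Drd2, the adenosine receptor Adora2a and the opioid peptide precursor Penk, while cells of the direct pathway carry the dopamine receptor Drd1 and the tachykinin precursor Tac1. Ppp1r1b encodes DARPP-32, a phosphatase inhibitor that protein kinase A switches on. Rgs9 speeds the shut-off of G proteins, Pde10a breaks down cyclic nucleotides, and Scn4b is an auxiliary subunit of voltage-gated sodium channels. None of these genes is exclusive to striatum: Penk and Tac1 also occur in some cortical interneurons, and DARPP-32 is also known from the epithelium of the choroid plexus.

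The mice were adult TERT-AD animals of the strain B6.129S6.SvEvTac, in which tamoxifen is meant to activate Tert, the catalytic subunit of telomerase. The 4 groups were hippocampal neurons after tamoxifen, hippocampal neurons of controls, cortical neurons after tamoxifen and cortical neurons of controls, where the protocols name vehicle as the other treatment. The labels do not give the promoter of the inducible allele, the dose, the age or how neurons were isolated. Each group had 4 libraries, of which libraries 1 and 2 were nearly alike, as were libraries 3 and 4, so they were added and counted as samples A and B (n = 2 per group, 8 in all). Nothing in the labels says that these samples came from separate animals, so the p-values below measure only the spread between them.

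Each sample held 83527470 to 108293362 counts in genes. Tert itself was low and did not separate the treatments, at 1.04 and 2.16 CPM (counts scaled to the library's sum over genes) in hippocampal tamoxifen samples A and B against 1.47 and 3.89 CPM in hippocampal controls, and at 1.04 and 2.33 CPM in cortical tamoxifen samples against 0.473 and 1.11 CPM in cortical controls. The CA1 gene Spink8 followed the region labels, at 1.75 to 1.96 CPM in hippocampal and 0.0709 to 0.140 CPM in cortical samples. The label of neurons alone did not: the myelin gene Mbp stood at 31420 to 48950 CPM in hippocampal and 16450 to 46490 CPM in cortical samples. Cortical tamoxifen sample B stood apart from the other cortical samples. After TMM scaling (trimmed mean of M values), it had 952 CPM of the excitatory neuron gene Slc17a7 against 510 to 528 CPM, and 69.3 CPM of the endothelial gene Cldn5 against 146 to 164 CPM. Of 9 excitatory cortical genes, 6 were highest in that sample among the cortical ones. Rorb, Rspo1 and, by a small margin, Cux2 of that list were lowest there. Genes of the choroid plexus also varied between samples. Their 7 markers summed to 47.2 and 8137 CPM in hippocampal tamoxifen samples A and B against 17200 and 8055 CPM in hippocampal controls, and to 5043 and 5.52 CPM in cortical tamoxifen samples against 938 and 6.09 CPM in cortical controls. In bulk RNA of this kind, fewer cells of a type and less RNA per cell cannot be told apart.

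The members lie on 6 chromosomes in mm10, the build of the deposited tables, so most are not neighbours. Drd2 (chr9:49340662-49407214, plus strand) and Scn4b (chr9:45138437-45154152, plus strand) are 4.19 Mb apart. Ppp1r1b (chr11:98348404-98357796, plus strand) and Rgs9 (chr11:109225355-109298129, minus strand) are 10.9 Mb apart. Adora2a lies at chr10:75316943-75334788, Penk at chr4:4133531-4138819, Tac1 at chr6:7554879-7565834 and Pde10a at chr17:8525372-8986648. Ppp1r1b, Penk and Pde10a overlap annotated genes on the opposite strand, none of which exceeded 12 counts in a library.

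The bases before the start sites of 3 members are shown, taken from RefSeq on GRCm38.p6. RefSeq windows were matched for 5 of the 8 members by symbol. Both strands of the 250 bases upstream were searched for the cAMP response element TGACGTCA, its variant TGCGTCA, the GC box GGGCGG, the TATA box TATAAA, the CCAAT box CCAAT and the E box CACGTG, and matches are in capitals. Drd2 and Rgs9, a receptor and a regulator of G proteins, are shown in full, and Tac1 over the first 68 bases.
Drd2 (chr9:49340153-49340402, plus strand): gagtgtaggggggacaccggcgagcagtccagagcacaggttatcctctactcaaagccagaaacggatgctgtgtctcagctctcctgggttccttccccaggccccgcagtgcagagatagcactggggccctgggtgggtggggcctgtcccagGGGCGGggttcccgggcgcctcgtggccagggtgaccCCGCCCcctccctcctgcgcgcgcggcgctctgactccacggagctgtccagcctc
Rgs9 (chr11:109298182-109298431, minus strand): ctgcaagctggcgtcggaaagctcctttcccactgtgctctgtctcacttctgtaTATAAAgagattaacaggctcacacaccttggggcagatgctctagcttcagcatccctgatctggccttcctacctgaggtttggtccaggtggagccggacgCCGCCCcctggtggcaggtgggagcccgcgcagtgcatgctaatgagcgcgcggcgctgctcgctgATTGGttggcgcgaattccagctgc
Tac1 (chr6:7554811-7554878, plus strand): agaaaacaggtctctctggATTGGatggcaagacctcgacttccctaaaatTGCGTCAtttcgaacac

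The Drd2 window held 2 GC boxes and the Rgs9 window 1 GC box, a TATA box and a CCAAT box, the last read as ATTGG on the printed strand. The Tac1 stretch held a CCAAT box and the variant cAMP response element, 199 to 193 bases upstream of the RefSeq start site. That window ends at chr6:7555060 and overlaps 1 annotated exon, so only the bases before the exon are printed. They end directly before the start of Tac1 given above, chr6:7554879. Of 32536 mouse windows of the same length, 33% held a GC box, 33.8% a CCAAT box, 12.3% the TATA box and 1.76% the variant response element. The full response element, found in 1.56% of windows, was in none of the 5 members' windows, which says only that these letters are absent there. Any part of these motifs in the members' levels was not tested.

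The receptors came first in the comparison. Drd2 stood at 0.495 and 0.591 CPM in hippocampal tamoxifen samples A and B, 0.382 and 0.388 CPM in hippocampal controls, 3.39 and 14.7 CPM in cortical tamoxifen samples and 8.89 and 6.56 CPM in cortical controls. All 4 hippocampal samples lay far below all 4 cortical ones, and in cortex the tamoxifen samples held both the lowest and the highest value. The hippocampal levels rest on 19 to 35 counts per library, and the cortical ones on 117 to 928. Adora2a, which opposes Drd2 signalling in the same cells, stood at 3.49 and 3.32 CPM in hippocampal tamoxifen samples, 3.04 and 3.14 CPM in hippocampal controls, 6.61 and 30.3 CPM in cortical tamoxifen samples and 17.4 and 11.3 CPM in cortical controls. Its cortical samples had the same order as those of Drd2, with tamoxifen B highest, then control A, control B and tamoxifen A.

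The peptide precursors varied most within cortex. Penk, the precursor of the enkephalins, stood at 2.99 and 2.66 CPM in hippocampal tamoxifen samples, 2.23 and 2.19 CPM in hippocampal controls, 8.43 and 69.9 CPM in cortical tamoxifen samples and 35.0 and 8.41 CPM in cortical controls. Tamoxifen A and control B were thus level in cortex, and each group also had a sample several times higher. Tac1, the precursor of substance P, stood at 1.05 and 0.471 CPM in hippocampal tamoxifen samples, 0.745 and 0.545 CPM in hippocampal controls, 1.53 and 11.6 CPM in cortical tamoxifen samples and 4.05 and 2.28 CPM in cortical controls. The highest cortical sample exceeded the lowest 8.31-fold for Penk and 7.57-fold for Tac1.

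Among the signalling genes, Rgs9 stood at 3.76 and 5.09 CPM in hippocampal tamoxifen samples, 3.98 and 3.58 CPM in hippocampal controls, 8.22 and 35.2 CPM in cortical tamoxifen samples and 21.1 and 10.4 CPM in cortical controls. Pde10a stood at 14.7 and 13.2 CPM in hippocampal tamoxifen samples, 10.8 and 10.9 CPM in hippocampal controls, 25 and 79.6 CPM in cortical tamoxifen samples and 42.8 and 33.4 CPM in cortical controls. Both followed the cortical order of the receptors. Scn4b, which shapes resurgent sodium current, stood at 6.06 and 5.61 CPM in hippocampal tamoxifen samples, 4.55 and 5.72 CPM in hippocampal controls, 33.6 and 150.3 CPM in cortical tamoxifen samples and 65.4 and 54.3 CPM in cortical controls. All 4 hippocampal samples lay below all 4 cortical ones. Ppp1r1b differed from the other 7, at 49.1 and 93.9 CPM in hippocampal tamoxifen samples, 151 and 92.1 CPM in hippocampal controls, 92.5 and 204 CPM in cortical tamoxifen samples and 104 and 79.3 CPM in cortical controls. Its hippocampal and cortical levels overlapped.

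**Figure D1:**
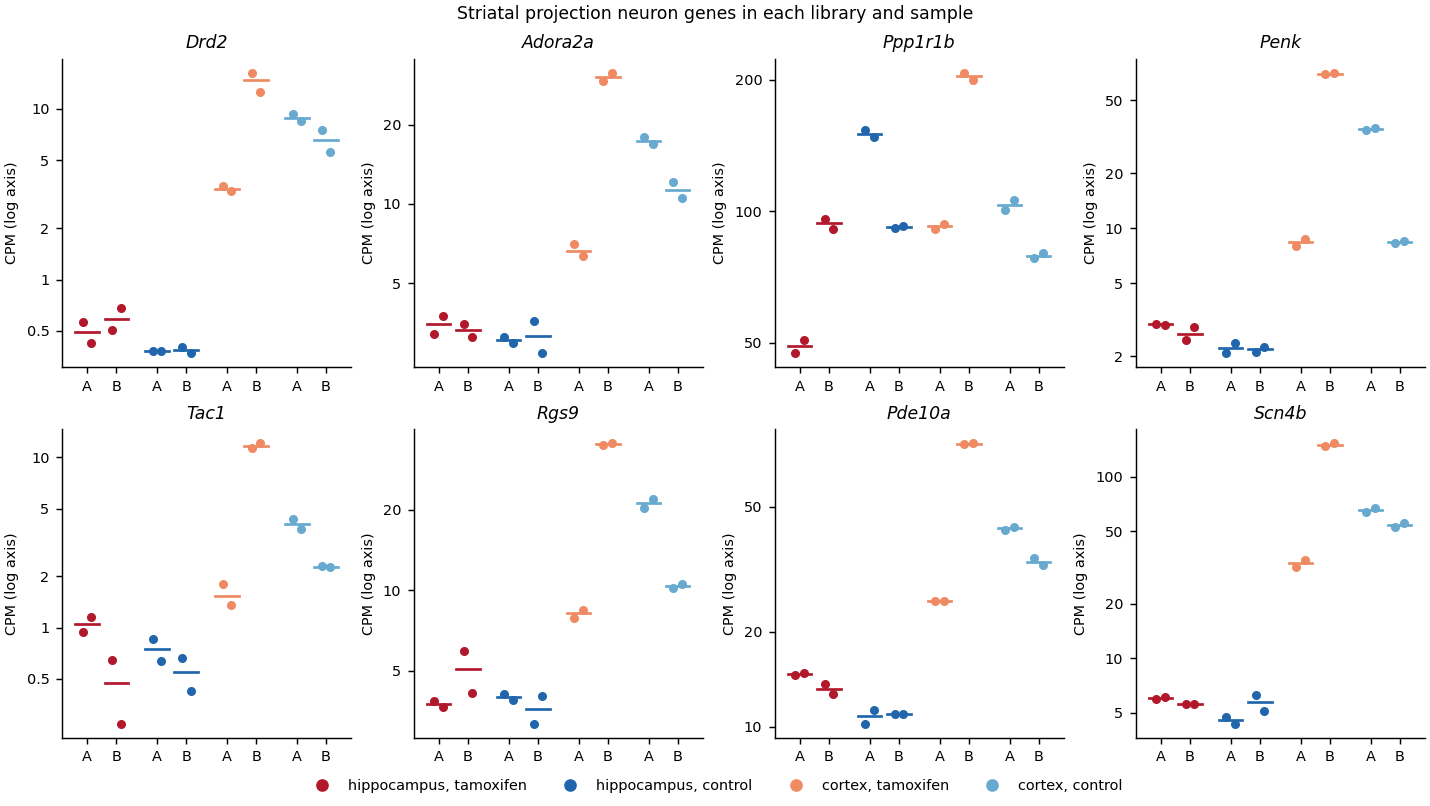
CPM of each of the 8 genes on a log axis, with points for single libraries and a line for each sample (A, libraries 1 and 2; B, libraries 3 and 4). Paired libraries lie close together, 7 genes are lower in every hippocampal sample than in every cortical one, and cortical tamoxifen sample B is highest among cortical samples for all 8, as it is for 72.9% of the 13619 genes at a mean of 1 CPM or more (41.7% after TMM scaling).

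Between genes, levels were compared per kilobase of exon, on the scale of CPM per kb. Ppp1r1b was the highest member in all 4 groups by its mean, at 24.5 ± 10.8 CPM per kb in hippocampal tamoxifen samples, 41.6 ± 14.2 in hippocampal controls, 50.8 ± 27.1 in cortical tamoxifen samples and 31.3 ± 5.88 in cortical controls (SD, n = 2 each). Tac1 was the lowest in all 4, at 0.224 ± 0.120, 0.190 ± 0.0417, 1.94 ± 2.10 and 0.933 ± 0.369 CPM per kb in the same groups. In cortical controls the order between them was Penk (13.3 ± 11.5), Scn4b (12.1 ± 1.59), Adora2a (5.67 ± 1.69), Drd2 (5.01 ± 1.07), Pde10a (3.03 ± 0.526) and Rgs9 (2.47 ± 1.20 CPM per kb). There the ranges of Penk and Scn4b, of Adora2a and Drd2, and of Pde10a and Rgs9 overlapped, and in cortical tamoxifen samples every neighbouring pair did. In hippocampal controls Drd2 was in place 7, against place 5 in cortical controls, at 0.250 ± 0.00271 CPM per kb.

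The question between regions was which striatal markers were lower in hippocampal than in cortical samples. In controls, 4 of 8 members were called lower in hippocampus by edgeR at an adjusted p under 0.05, where 3.48% of all 18074 genes tested were. Drd2 fell by 4.70 on the log2 scale (SE 0.57, edgeR adjusted p = 0.0187) and Scn4b by 3.92 (SE 0.54, edgeR adjusted p = 0.0241). Adora2a fell by 2.60 (SE 0.53, edgeR adjusted p = 0.0414) and Pde10a by 2.19 (SE 0.36, edgeR adjusted p = 0.0319). The log2 fold changes of Penk, Tac1 and Rgs9 were -3.67, -2.68 and -2.44, none of which passed (SE 1.03, 0.80 and 0.57; edgeR adjusted p = 0.0904, 0.0888 and 0.0553). For Ppp1r1b it was 0.02, with an SE of 0.39 and an edgeR adjusted p = 0.979. In CPM, the 2 hippocampal controls lay below the 2 cortical controls for 7 of 8 members, against 13% of all genes. On that scaling, the sum of gene rows, the median log2 fold change of all genes was 0.385. With TMM, the median log2 fold change was -2.64 over the members and 0.00 over all genes.

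These calls changed with the samples, the scaling and the tool. None of the 4 remained without cortical control A, cortical control B, hippocampal control A or hippocampal control B, and Adora2a also lost its call without either hippocampal tamoxifen sample, as did Pde10a without sample A of them. Scaled to the sum of gene rows or with no count filter, Adora2a lost its call (edgeR adjusted p = 0.0553 and 0.0838). DESeq2 called 7 members lower against 8.8% of genes, limma voom with quality weights 6 against 12.6%, and edgeR on 16 separate libraries 7 against 19.4%.

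The same comparison within the tamoxifen groups used other samples. There 2 of 8 members were called lower in hippocampus, against 0.692% of all genes: Drd2, which fell by 4.09 (SE 0.55, edgeR adjusted p = 0.0368), and Scn4b, which fell by 4.01 on the log2 scale (SE 0.54, edgeR adjusted p = 0.0378). The log2 fold changes of the others were -1.97 for Pde10a (SE 0.36), -2.47 for Adora2a (SE 0.52), -2.32 for Rgs9 (SE 0.57), -3.12 for Tac1 (SE 0.81), -3.79 for Penk (SE 1.04) and -1.14 for Ppp1r1b (SE 0.39). Their edgeR adjusted p ran from 0.056 for Pde10a to 0.166 for Ppp1r1b. In CPM, both hippocampal samples lay below both cortical ones for 7 of 8 members, against 8.63% of all genes, the exception again being Ppp1r1b. After TMM scaling Ppp1r1b lay below too, at 44.12 and 88.46 CPM in hippocampal against 111.9 and 179.4 CPM in cortical samples. Neither call remained without either cortical control, either hippocampal control or either hippocampal tamoxifen sample. Without cortical tamoxifen A, 7 members were called lower against 12.7% of genes, and without cortical tamoxifen B 4 were, against 1.29%. Both calls were lost on the sum of gene rows (edgeR adjusted p = 0.0639 for Drd2 and 0.0735 for Scn4b), and that of Scn4b with no count filter (edgeR adjusted p = 0.0522). DESeq2 called 8 lower against 6.43%, edgeR on 16 libraries 8 against 18.4%, and limma voom 0 of 8 and 0% of genes.

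**Figure D2:**
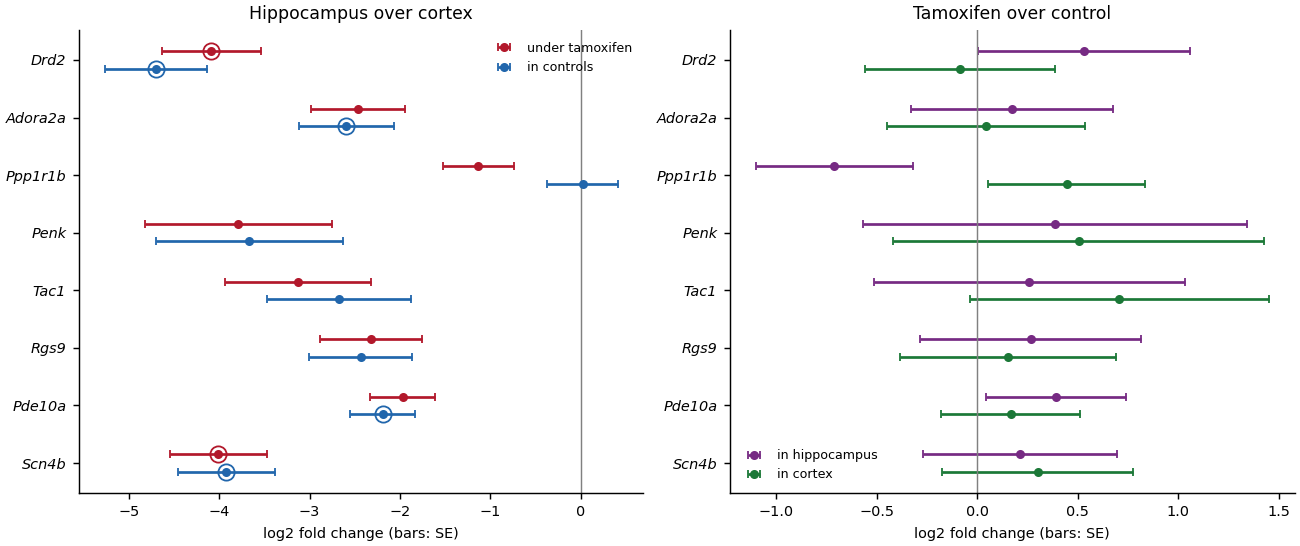
Log2 fold changes of the 8 genes with their standard errors, for hippocampus over cortex (left) and tamoxifen over control (right), from edgeR on 8 samples. Ringed points have an adjusted p under 0.05: Drd2, Adora2a, Pde10a and Scn4b in controls, Drd2 and Scn4b under tamoxifen, and none for tamoxifen over control.

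Tamoxifen was compared with control within each region. In cortex 0 of 8 members were called, as were 0% of all 18074 genes by edgeR, with 899 genes at an unadjusted p under 0.05 and no member among them. DESeq2 called 8 genes and limma voom 0, with no member in either. In CPM, 20.8% of genes stood higher and 6.29% lower in both tamoxifen samples. On that scaling, the sum of gene rows, the median log2 fold change of all genes was 0.247, against 0.039 with TMM. For all 8 members the cortical groups overlapped, in CPM and after TMM scaling. The largest log2 fold changes were 0.71 for Tac1 (SE 0.74, edgeR adjusted p = 0.852), 0.51 for Penk (SE 0.92, edgeR adjusted p = 0.904) and 0.45 for Ppp1r1b (SE 0.39, edgeR adjusted p = 0.839). Those of Scn4b, Pde10a, Rgs9, Adora2a and Drd2 were 0.30, 0.17, 0.15, 0.05 and -0.09, with SE of 0.35 to 0.54. These values rested on single samples. Without cortical tamoxifen B, Penk moved to -1.31, Adora2a to -1.07 and Tac1 to -0.997, while without cortical tamoxifen A Scn4b (0.91, edgeR adjusted p = 0.0264) and Pde10a (0.64, edgeR adjusted p = 0.0399) were called higher, when 6.14% of genes were.

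In hippocampus 0 of 8 members and 0% of all genes were called by edgeR, with 653 genes at an unadjusted p under 0.05 and no member among them. DESeq2 called 8 genes and limma voom 0, with no member in either. In CPM, 0 of 8 members stood lower in both tamoxifen samples than in both controls, against 23.6% of genes. Drd2, Adora2a, Penk and Pde10a stood higher in both, 4 of 8 members against 14.6% of genes. Their log2 fold changes were small beside their errors: 0.53 for Drd2 (SE 0.53), 0.17 for Adora2a (SE 0.50), 0.39 for Penk (SE 0.96) and 0.39 for Pde10a (SE 0.35), each with an edgeR adjusted p = 1. Tac1, Rgs9 and Scn4b had 0.26 (SE 0.77), 0.27 (SE 0.55) and 0.21 (SE 0.48), and overlapped in CPM. After TMM scaling, which the fold changes use, Scn4b did not overlap. It stood at 5.441 and 5.281 CPM in tamoxifen samples and 3.982 and 5.276 CPM in controls. Ppp1r1b had -0.71 (SE 0.39, edgeR adjusted p = 1). A difference between the regions' tamoxifen effects was called for 0 of 8 members and 0% of genes by edgeR, with 981 genes and no member at an unadjusted p under 0.05, while DESeq2 called 4 genes and limma voom 0. For Ppp1r1b that difference, hippocampal minus cortical, was -1.16 on the log2 scale (SE 0.55, edgeR adjusted p = 0.889).

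Within cortex the members ranged widely between samples, most of them in the same order. The highest cortical sample exceeded the lowest 4.34-fold for Drd2, 4.59-fold for Adora2a, 4.28-fold for Rgs9, 4.47-fold for Scn4b, 3.18-fold for Pde10a and 2.58-fold for Ppp1r1b. All 8 members had a range of at least 2-fold, against 23.8% of the 13619 genes at a mean of 1 CPM or more, and after TMM scaling 7 of 8 did, against 16%. The median range was 4.4-fold for the members and 1.60-fold for these genes. The cortical order of Adora2a, from which it was read, was shared by Drd2, Tac1, Rgs9, Pde10a and Scn4b and not by Penk or Ppp1r1b, and 19.7% of these genes had it (7.53% after TMM scaling). Tamoxifen B, the highest sample of all 8 members, was also highest for 72.9% of these genes. After TMM scaling it was highest for 7 of 7 sodium channel partners, 10 of 10 signalling partners and 17 of 20 shared striatal genes. It was also highest for 8 of 10 inhibitory neuron genes and 6 of 9 excitatory cortical genes. Of all 18074 genes tested it was highest for 7003, and of 6 oligodendrocyte, 6 astrocyte, 6 microglial and 6 endothelial genes for 0. In log2(TMM-scaled CPM + 0.5) it exceeded the mean of the other cortical samples by a median of 1.04 for the members. That median was 1.05, 0.64 and 0.46 for the sodium channel, signalling and shared striatal lists. For the inhibitory and excitatory lists it was 0.71 and 0.88, and for all genes 0.013. The mitochondrial share of counts in tamoxifen B was 20.4%, while tamoxifen A and the 2 controls of cortex had 29.9 to 31.5%. The part of that sample's makeup in the members' range was not tested. In hippocampus the ranges were 1.15-fold to 1.55-fold for 6 members, 2.22-fold for Tac1 and 3.07-fold for Ppp1r1b.

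Some of this spread was between the 2 cortical controls. On the scale of log2(TMM-scaled CPM + 0.5), where the added 0.5 damps low genes, all 8 members were higher in control A than in control B, with a median difference of 0.46, while 49.6% of all genes were. Penk, Tac1 and Rgs9 differed at least 1.5-fold on that scale, 3 of 8 members against 2.17% of genes. In TMM-scaled CPM with nothing added, Drd1, the receptor of the direct pathway, was 1.96 times as high in control A and Gpr6, an orphan receptor of the indirect pathway, 2.93 times. The ratios of Slc17a7, Mbp and Gad1, which mark excitatory neurons, myelin and inhibitory neurons, were 0.966, 0.986 and 0.816. The choroid plexus list moved the same way as the members here, with 7 of 7 genes at least 1.5-fold higher in control A on the scale with 0.5 added, and its part in these values was not tested. Of the remaining lists, 2 of 7 direct pathway genes and 1 of 3 indirect pathway genes passed 1.5-fold on that scale. So did 2 of 8 hippocampal subfield genes and 1 of 5 other dopamine and adenosine receptors, the latter being Drd1 again. In all, 3 of 7 direct pathway genes and 2 of 3 indirect pathway genes were higher in control A (median differences -0.053 and 0.033). Of 20 shared striatal genes 14 were higher, with a median difference of 0.135, and 0 passed 1.5-fold on that scale. All 6 endothelial genes and 4 of 6 oligodendrocyte genes were also higher in control A, none of them 1.5-fold.

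**Figure D3:**
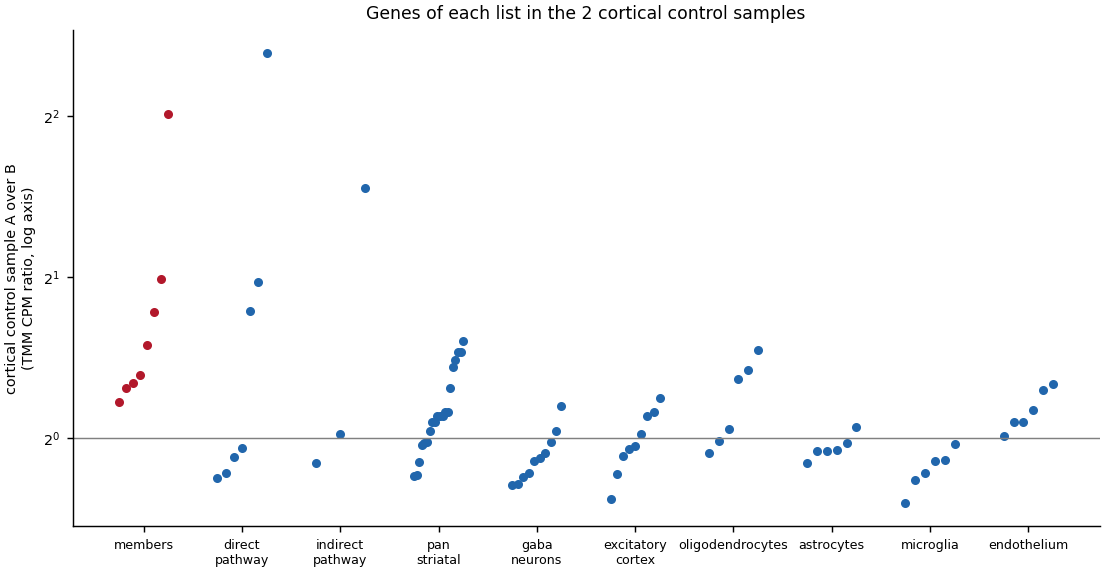
Ratio of cortical control sample A to cortical control sample B in TMM-scaled CPM with nothing added, on a log axis, 1 point per gene, for the 8 members and 9 lists of pathway and cell type genes. All 8 members and all 6 endothelial genes lie above the line of equal level, as do 4 of 6 oligodendrocyte genes, while 2 of 10 inhibitory neuron genes, 1 of 6 astrocyte genes and 0 of 6 microglial genes do. Above it also lie 14 of 20 shared striatal genes and 4 of 9 excitatory cortical genes. In the direct and indirect pathway lists, 3 of 7 and 2 of 3 genes do.

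Ratios within a sample remove the scaling, and 1 gene's counts were divided by those of Adora2a to follow whether members kept in step. Drd2 over Adora2a was 0.124 to 0.178 in the 4 hippocampal samples and 0.485 to 0.579 in the 4 cortical ones, a narrow range in cortex although each gene varied more than 4-fold. Scn4b over Adora2a was 1.5 to 1.82 in hippocampal and 3.76 to 5.09 in cortical samples. Both ratios separated the regions without overlap. Rgs9 over Adora2a overlapped, at 1.08 to 1.53 in hippocampal and 0.914 to 1.25 in cortical samples, as did Pde10a over Adora2a, at 3.49 to 4.21 and 2.46 to 3.79 in the same order.

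The other ratios were loose. Penk over Adora2a was 0.697 to 0.856 in hippocampal samples, against 1.28 and 2.31 in cortical tamoxifen samples A and B and 2.01 and 0.742 in cortical controls, so the enkephalin precursor did not keep step with the receptor in cortex. Tac1 over Adora2a was 0.142 to 0.300 in hippocampal and 0.201 to 0.383 in cortical samples. Tac1 over Penk, the peptide of the direct pathway over that of the indirect one, was 0.177 to 0.350 in hippocampal and 0.116 to 0.271 in cortical samples. No test was run on ratios.

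**Figure D4:**
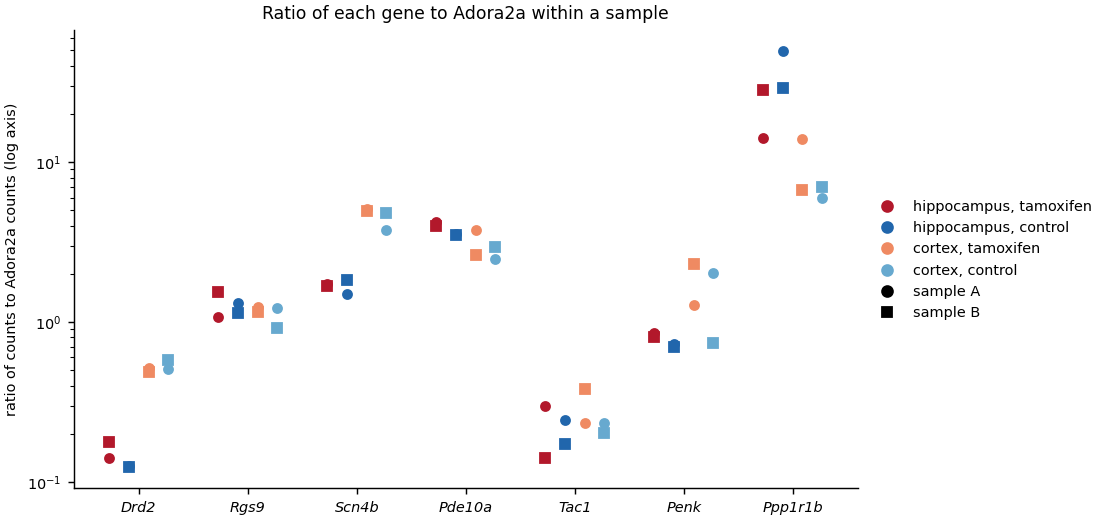
Ratio of each gene's counts to Adora2a counts within a sample, on a log axis, with circles for sample A and squares for sample B. Drd2 and Scn4b separate hippocampal from cortical samples, Rgs9 and Pde10a do not, Penk scatters most among cortical samples, and Ppp1r1b scatters most among hippocampal samples and nearly meets between the regions.

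Ppp1r1b was the member whose levels overlapped between the regions. Its ratio to Adora2a was 14.1 to 49.6 in hippocampal and 5.96 to 14.0 in cortical samples, which do not overlap but nearly meet. Its level moved with genes of the choroid plexus in hippocampus. Ttr, the transthyretin gene that choroid plexus expresses at a high level, stood at 37.8 and 7488 CPM in hippocampal tamoxifen samples A and B and at 15950 and 7345 CPM in hippocampal controls, where Ppp1r1b had 49.1, 93.9, 151 and 92.1 CPM. Folr1, the folate receptor of that epithelium, was at 0.400 and 60.1 CPM in tamoxifen samples and 120.3 and 61.2 CPM in controls. In cortex the highest Ppp1r1b, 204 CPM, fell in tamoxifen sample B with 3.18 CPM of Ttr. Control A, tamoxifen A and control B had 104, 92.5 and 79.3 CPM of Ppp1r1b. Their Ttr was 876, 4701 and 3.88 CPM in the same order. The part of choroid plexus RNA in the Ppp1r1b values was not tested.

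**Figure D5:**
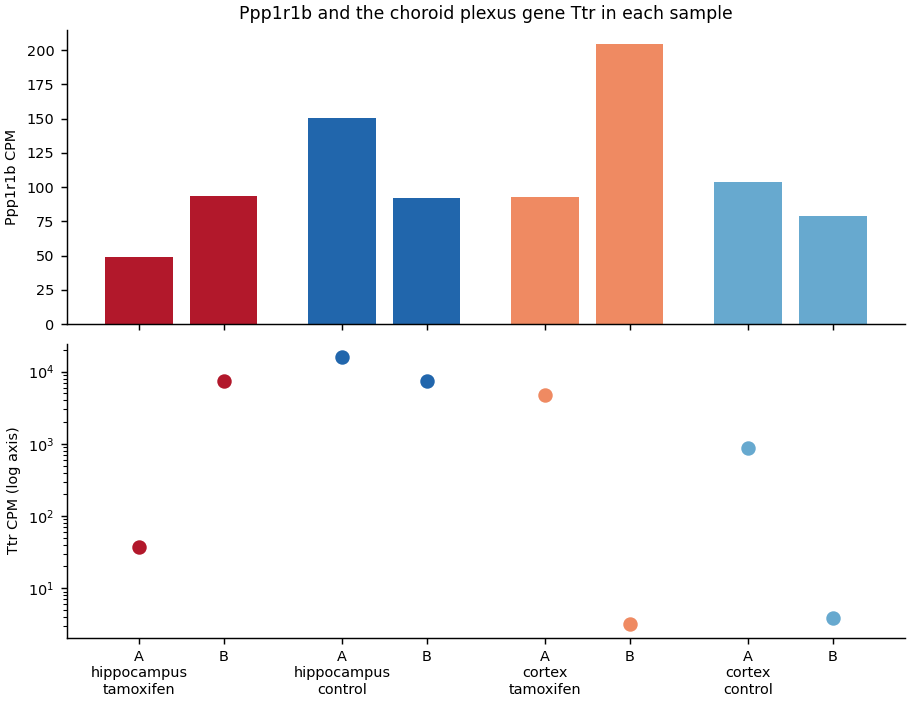
CPM of Ppp1r1b (bars, linear axis from 0) and of the choroid plexus gene Ttr (points, log axis) in the 8 samples. Among hippocampal samples both are lowest in tamoxifen A and highest in control A, while cortical tamoxifen B has the highest Ppp1r1b and the lowest Ttr.

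Other striatal genes were read from lists. In the region contrast of controls, 13 of 20 genes shared by both kinds of medium spiny neuron were called lower in hippocampus and 0 higher, against 3.48% and 2.71% of all genes, with a median log2 fold change of -1.45 against 0.00. Among those of smallest p were Syndig1l (-3.39, edgeR adjusted p = 0.0123), Arpp21, a cAMP-regulated phosphoprotein (-2.17, edgeR adjusted p = 0.0163), and the homeobox gene Meis2 (-1.60, edgeR adjusted p = 0.0177). Under tamoxifen 7 of the 20 were called lower against 0.692% of all genes, among them these 3 genes. Of 7 direct pathway genes, 1 was called lower in each contrast, the dynorphin precursor Pdyn (-2.31 in controls, edgeR adjusted p = 0.0354, and -3.24 under tamoxifen, edgeR adjusted p = 0.0368), while Drd1 had -3.15 in controls (edgeR adjusted p = 0.0524). Of 3 indirect pathway genes tested, 2 were called lower in controls, the transcription factor Sp9 (-1.71, edgeR adjusted p = 0.0241) and Gpr6 (-4.96, edgeR adjusted p = 0.0472), and 0 under tamoxifen.

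Partners of the members were taken from 3 further lists. Among 5 other dopamine and adenosine receptors tested, 1 was called higher in hippocampal controls, the adenosine receptor Adora2b (0.94, edgeR adjusted p = 0.0429), and 0 lower. Of 6 opioid and tachykinin receptors, 1 was called lower, the delta opioid receptor Oprd1 (-1.48, edgeR adjusted p = 0.0334). Among 10 signalling partners, 2 were called lower, the phosphatase inhibitor Ppp1r1a (-0.72, edgeR adjusted p = 0.0327) and Rgs7bp, which anchors Rgs proteins at the membrane (-1.33, edgeR adjusted p = 0.0432). Under tamoxifen, Ppp1r1a was the 1 gene called in these 3 lists (-0.79, edgeR adjusted p = 0.0447).

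Genes of other cell types were also called in the same contrast. Of 9 excitatory cortical genes 6, and of 10 inhibitory neuron genes 2, were called lower in hippocampal controls, against 3.48% of all genes. Of 8 hippocampal subfield genes 3, and of 6 microglial genes 5, were called higher, against 2.71% of all genes. The part of these cell types in the members' values was not tested. In the comparisons of tamoxifen with control, 0 genes of any list were called by edgeR in either region. There the shared striatal list had 12 of 20 positive log2 fold changes in cortex (median 0.08, against 0.04 for all genes) and 19 of 20 in hippocampus (median 0.33, against -0.01). In hippocampus the other neuron lists had the same sign, with 10 of 10 inhibitory neuron genes (median 0.45), 9 of 9 excitatory cortical genes (median 0.29) and 7 of 7 sodium channel partners (median 0.27) positive. Of 6 astrocyte genes 5 were positive (median 0.31), of 6 endothelial genes 3, and of all 18074 genes 8804. Oligodendrocyte and microglial genes had 0 of 6 positive each. Choroid plexus genes had 0 of 7 positive and a median of -1.55. The part of these lists in the members' values was not tested.

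Genes with a pattern most like that of Adora2a were found by Pearson's r of log2(CPM + 0.5) over the 8 samples. They were Cd4 (0.986), Dlx6 (0.985), Drd1 (0.985), Pde1b (0.982) and Rxrg (0.982), and with each region's mean removed r was 0.976, 0.973, 0.942, 0.921 and 0.930. Nearest to the mean of the 8 members were Drd1 (0.993), Rxrg (0.986), Dlx6 (0.986), Pde1b (0.985) and Krt9 (0.984). The 8 samples fall into 2 regions and share their scaling, so r is a description, and no p was computed. Drd1 stood at 0.447 and 0.332 CPM in hippocampal tamoxifen samples, 0.468 and 0.499 CPM in hippocampal controls, 1.86 and 12 CPM in cortical tamoxifen samples and 4.42 and 2.19 CPM in cortical controls. Since Drd1 was picked for its likeness to Adora2a, its order among samples is a description. The direct pathway gene Pdyn stood at 8.96 CPM in cortical tamoxifen B and was level in the other cortical samples, at 2.57 CPM in tamoxifen A and at 2.56 and 2.59 CPM in controls.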

How the data were processed

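The deposited tables hold, per the file headers, a whole-number count and an RPKM value for 39179 genes in each of 16 libraries. Per the submitters' processing notes, STAR and HTSeq were used with mm10, versions and strand setting not stated. The deposited RPKM was reproduced from count, exon length and total reads for 99.997% of values (tolerance 1e-06) and was not used in any test. Reads given to no gene, 35.5 to 42.5% of each library, stayed out of totals, which were 33236178 to 57195203 counts.

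Libraries 1 and 2, and 3 and 4, of each group were summed to 8 samples, a choice made from the values. For highly counted genes, their differences were 3.12 to 6.50 times the Poisson variance, against 13.6 to 748 times for other pairs of a group. CPM uses the sum of gene rows unless TMM is named. Tests used the robust quasi-likelihood test of edgeR 4.0.16 in R 4.3.3 with filterByExpr, TMM and 1 mean per group. Benjamini-Hochberg adjustment was over 18074 genes, at a threshold of 0.05. The tests were also run on simulated data. That outcome is not reported here, and no conclusion about the calls is drawn from it. SE was taken as the fold change on the log2 scale over the root of F. Alternatives were DESeq2 1.42.0, limma 3.58.1 voom with quality weights, 16 separate libraries, other scalings, no filter, no mitochondrial genes, a replicate block and each sample left out.

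The members and lists were chosen with earlier results of these data known. Named genes are the members, up to 4 genes of smallest p in a list, and the 5 genes most like Adora2a or the members' mean, at a mean of at least 1 CPM and without members, predicted, mitochondrial or pseudogene entries. Drd1, Slc17a7, Rorb, Rspo1, Cux2, Mbp, Gad1, Cldn5, Spink8, Ttr, Folr1 and Gpr6 in single samples were picked from the lists after their values were seen. Some genes that the rule takes are not reported here.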

Additional observations from a re-analysis of the deposited data

How the results depend on the processing

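Drd2, Adora2a, Penk, Tac1, Rgs9, Pde10a and Scn4b had lower values in hippocampus than in cortex, in controls and under tamoxifen, in all 18 alternatives run, each with another scaling, filter, tool or left-out sample, while calls changed. Leaving out 1 sample gave 0 to 6 members called in controls (0 to 3915 genes) and 0 to 7 under tamoxifen (0 to 4092 genes), and in cortex 0 to 2 members and 0 to 2014 genes for tamoxifen against control. DESeq2 called 7 and 8 members in the 2 region contrasts (3207 genes in controls and 1946 under tamoxifen), edgeR on 16 libraries 7 and 8 (6982 and 5510 genes), and limma voom 6 and 0 (4812 and 0 genes). Scaling to the sum of gene rows, which moves the median log2 fold change of all genes to 0.39 in controls and 0.12 under tamoxifen, called 3 and 0 members (2064 and 26 genes, of which 154 and 4 were lower against 629 and 125 with TMM). No filter called 3 and 1 members (1336 and 536 genes). For tamoxifen against control, DESeq2 called 8 genes in each region and 4 for the difference, 16 libraries 562, 318 and 867, and no filter 1 in cortex, none of them a member.

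Sample letters and library numbers are shared between groups but have no stated meaning. Same-letter deviations correlated at 0.422 (cortex) and -0.330 (hippocampus) between treatments and 0.339 (controls) and -0.536 (tamoxifen) between regions. With 2 pairs per contrast the letters cannot be taken as pairs. With letters as a replicate block, 1 member (Drd2) and 72 genes were called in controls, and 0 and 0 under tamoxifen. With hippocampal tamoxifen letters crossed, an alternative chosen after seeing the data, 2036 and 121 genes were called.

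Signs of values that were not called turned round as follows, and the cause was not tested. In cortex, Adora2a for tamoxifen against control was -0.004 with upper quartile scaling, -0.161 with voom and -0.067 with either replicate block, and Drd2 was 0.228 on the sum of gene rows. The difference between regions was 0.002, 0.226, 0.084 and 0.086 for Scn4b with upper quartile scaling, voom, the replicate block and the crossed block. It was -0.221, -0.238 and -0.096 for Adora2a, Rgs9 and Pde10a on the sum of gene rows, and 0.126 for Penk with voom. Ppp1r1b in hippocampal against cortical controls was -0.035 with upper quartile scaling and -0.006 with voom.

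With 1 sample left out, cortical log2 fold changes for tamoxifen ran from -1.142 to 0.51 for Drd2, -1.072 to 0.66 for Adora2a, -1.309 to 1.836 for Penk, -0.997 to 1.459 for Tac1, -0.887 to 0.746 for Rgs9, -0.56 to 0.644 for Pde10a and -0.787 to 0.91 for Scn4b. Hippocampal ones ran from -0.381 to 0.691 for Tac1 and -0.017 to 0.496 for Rgs9. The difference between regions ran from -0.488 to 1.245 for Adora2a, -1.45 to 1.695 for Penk, -1.2 to 1.256 for Tac1, -0.481 to 1.152 for Rgs9, -0.252 to 0.952 for Pde10a and -0.699 to 0.998 for Scn4b, and Ppp1r1b between control regions from -0.331 to 0.303. Samples left alone in a group were assumed to vary like the other groups. With 2 samples per group, large differences such as that of Penk between regions can miss the threshold. Drd2 and Tac1 in hippocampus rest on 14 to 62 counts per library.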
